A study of Mus musculus with 24 samples.

Results

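Liver messenger RNA at 24 h was compared with that at 8 h in mice given diethylhexylphthalate (DEHP), a plasticiser that acts as a peroxisome proliferator in rodents. The comparison used 6 of the 24 arrays of the study, 3 titled DEHP at 24 h and 3 titled DEHP at 8 h. It covered 18194 genes, each represented by the probe set with the highest mean over the 24 arrays. The animals were male B6C3F1 mice, a hybrid laboratory strain, 7 to 10 weeks old on arrival. DEHP was given by oral gavage at 1150 mg/kg in 10 ml/kg body weight, with dosing every 24 h over 3 days. Control mice received the same volume of corn oil, the vehicle, which the DEHP mice received too. The 3 corn oil arrays at 8 h and the 3 at 24 h showed which differences between the times were also present without DEHP, and the 6 arrays at 2 h gave a set of early responses from other livers. The labels leave unstated the number of doses given before the 24 h livers were taken, the time of day of sampling, and whether each array is a separate animal. The design text names 6 mice. The p-values therefore measure the spread between these arrays, which may be technical, and within the DEHP arrays the time since dosing and the time of day cannot be told apart.

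DEHP is known for acting through PPARα, a nuclear receptor that pairs with RXR, is activated by fatty acids and by metabolites of such plasticisers, and switches on genes of peroxisomal, mitochondrial and microsomal fatty acid oxidation in rodent liver. Some of the same genes respond to fasting, when fatty acids from adipose tissue reach the liver. Foreign compounds can also activate CAR, a nuclear receptor whose best known mouse target is the cytochrome P450 gene Cyp2b10. The liver has a circadian clock besides, in which CLOCK and ARNTL (BMAL1) activate, and PER, CRY and REV-ERB proteins repress, so that many liver genes differ between times of day in untreated animals.

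The 6 DEHP arrays were close to each other. Across genes, which are not independent replicates, arrays of DEHP at 8 h correlated with r between 0.9924 and 0.9948, arrays of DEHP at 24 h with r between 0.9941 and 0.996, and arrays of different times with r between 0.9864 and 0.9893. The 7 defining hepatocyte genes had log2 signals from 11.81 to 14.47 on these arrays. Across marker lists of 9 other cell types, the only called differences in DEHP were in the adipocyte list, where 2 of 8 measured markers were lower at 24 h (Cidec and Lipe, both also lipid-droplet genes, with -0.01 in another probe set of Lipe). The mean of the adipocyte list lay between 7.66 and 7.80 on the 8 h arrays and between 7.31 and 7.52 on the 24 h arrays, and its part in the results below was not tested. In whole liver, fewer cells of a type and less RNA per cell cannot be told apart. Among the corn oil arrays, replicate 2 at 8 h stood apart in RNA quality, with a 3′ minus 5′ Actb difference of 1.46 log2 against 0.50 to 0.71 on the 6 DEHP arrays, and replicate 3 at 24 h stood apart in metallothionein and acute phase genes. In the DEHP comparison these arrays enter only the shared estimate of the spread, and so its errors and p-values. An array number in the titles, 14, is shared by corn oil replicate 3 and DEHP replicate 2 at 8 h, but the arrays differed (SD of the difference 0.282) and were treated as separate samples.

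In DEHP livers, 1010 of 18194 genes (5.55%) differed between 24 and 8 h at an adjusted p under 0.05 (limma, Benjamini-Hochberg over all genes). Of these, 522 (2.87%) were higher and 488 (2.68%) were lower at 24 h. Among differences of at least 2-fold falls were more frequent: 108 of the lower genes and 78 of the higher genes passed that size. The 3 arrays of one time did not overlap the 3 of the other for 4045 genes (22.2%). The median difference over all genes was -0.007 log2. In corn oil livers 468 genes (2.57%) differed between the same times, 142 higher (0.78%) and 326 lower (1.79%), and the times did not overlap for 14.7% of genes. Without corn oil replicate 2 at 8 h that count was 238, and without replicate 1 at 24 h it was 194. Under quantile normalization or median centring, 47.0% and 47.3% of the corn oil calls were higher, against 30.3% as reported.

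Much of the difference between the times was shared by the treatments, which have no array in common here. Of the 522 genes higher at 24 h in DEHP, 99 were also called higher in corn oil, which is 19% of the DEHP genes and 69.7% of the corn oil genes. Of the 488 lower genes, 138 were also called lower in corn oil, 28.3% and 42.3% of the 2 lists. A further 6 of the higher genes and 0 of the lower genes were called in the opposite direction in corn oil. The genes lower in DEHP had a median difference of -0.64 log2 in DEHP and -0.34 in corn oil. The genes higher in DEHP had medians of 0.59 and 0.22. Across all genes the differences in the 2 treatments correlated with r = 0.57 (Spearman's rho 0.29), as a description over genes that share arrays. The plot of the 2 differences shows both groups of genes, those along the diagonal and those away from it.

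**Figure D1:**
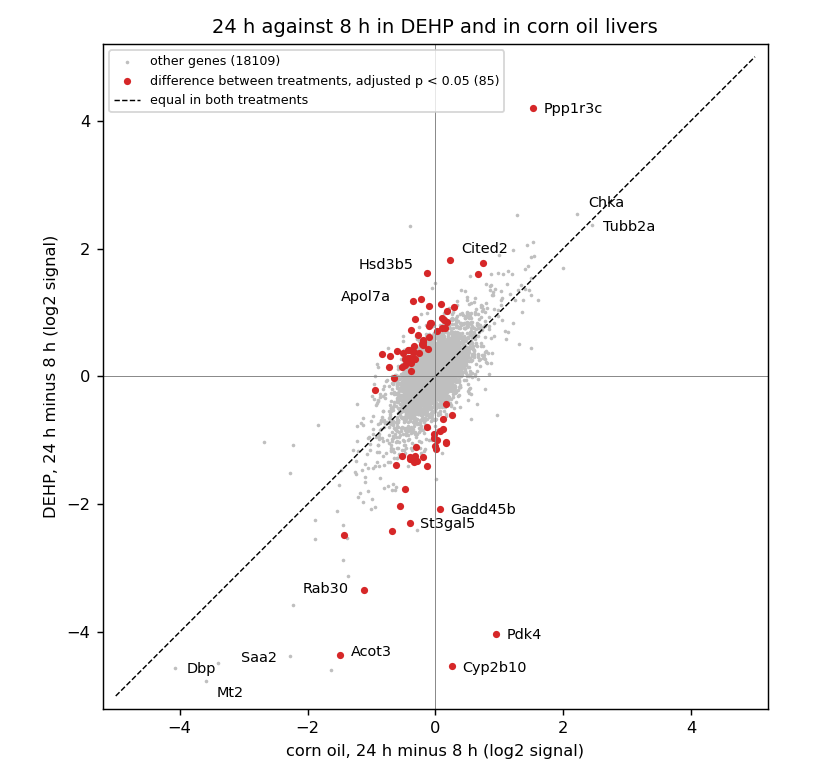
Difference between 24 and 8 h (log2 signal) in DEHP livers (vertical) against the same difference in corn oil livers (horizontal), 1 point per gene. Red points are the 85 genes whose difference itself differed between the treatments at an adjusted p under 0.05. Dbp and Mt2 lie near the dashed line of equal differences, while Cyp2b10, Pdk4 and Acot3 lie far below it and Ppp1r3c far above it.

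The DEHP effect, meaning DEHP minus corn oil at the same time, was called for 752 genes at 8 h (4.13%; 1.28% higher and 2.86% lower) and for 54 genes at 24 h (0.297%; 0.253% higher and 0.044% lower). The change of the effect itself was called for 85 genes (0.467%; 0.286% higher and 0.181% lower), by the limma test of the interaction (1683 genes at an unadjusted p under 0.05). In 33 of them the DEHP effect was lower at 24 h. All 33 were called lower at 24 h in DEHP and all 33 were called higher than corn oil at 8 h. Their median effect was 1.04 log2 at 8 h and 0.00 at 24 h. The other 52 genes had a median effect of -0.73 log2 at 8 h and 0.12 at 24 h, and 36 of them were called higher at 24 h in DEHP. These medians describe genes picked on the same arrays and are no further test. For the 52 genes the corn oil arrays also moved, with a median of -0.27 log2 and 21 called in corn oil. The count of 85 was smaller without some arrays: 54 without corn oil replicate 2 at 8 h, 50 and 48 without DEHP replicates 1 and 3 at 8 h, 42 without corn oil replicate 1 at 24 h, and 45 and 51 without DEHP replicates 1 and 2 at 24 h. Under quantile normalization 48.3% of these calls were higher and under median centring 51.5%, against 61.2% as reported.

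Among the 33 genes whose DEHP effect was lower at 24 h than at 8 h, the changes of Pdk4 and Cyp2b10 were the largest. At 2 h the effect of DEHP was called for Pdk4 but not for Cyp2b10 (0.97 log2, limma adjusted p 0.188). Pdk4, which phosphorylates and inactivates pyruvate dehydrogenase, had log2 signals of 11.87, 11.92 and 11.26 on the DEHP arrays at 8 h and 7.72, 7.68 and 7.59 at 24 h. In corn oil it read 6.47, 5.12 and 5.54 at 8 h and 6.68, 7.03 and 6.29 at 24 h. The DEHP arrays at 8 h stood far above all others, and those at 24 h lay just above the corn oil arrays. Pdk4 fell by 4.02 ± 0.27 log2 (SE, 3 arrays a group; 16.3-fold; limma adjusted p 1.81e-09) in DEHP and its difference in corn oil was 0.95 (adjusted p 0.0653; 1.14 and 0.0353 without corn oil replicate 3 at 24 h). Its DEHP effect was 5.97 log2 at 8 h and 1.00 at 24 h, and the change differed between the treatments with an adjusted p of 1.59e-07.

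Cyp2b10, the cytochrome P450 gene that reports CAR activity, read 12.07, 12.11 and 10.86 at 8 h in DEHP and 6.82, 7.31 and 7.31 at 24 h. Its 6 corn oil values at these times lay between 6.44 and 6.86. All 3 DEHP arrays at 8 h lay above every other array, and at 24 h 1 DEHP array lay within the corn oil range and the other 2 just above it. Cyp2b10 fell by 4.54 ± 0.29 log2 (23.2-fold; adjusted p 8.18e-10), against a corn oil difference of 0.25 (adjusted p 0.83) and an interaction p of 6.7e-07 after adjustment. Gadd45b, a growth-arrest and stress gene that CAR activators also induce, read 9.66, 10.17 and 8.42 at 8 h and 7.23, 7.33 and 7.48 at 24 h in DEHP. It fell by 2.07 ± 0.32 log2 (adjusted p 0.000135), with 0.07 in corn oil, and its 3 probe sets ranged from -2.62 to -0.45. The DEHP arrays at 8 h were uneven for this gene, with replicate 3 lowest, but did not overlap those at 24 h, and the interaction (adjusted p 0.0278) was not called without any 1 of 7 of the 12 arrays, among them corn oil replicate 2 at 8 h (0.0747).

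Of 26 measured genes of CAR and PXR drug metabolism, 5 were lower at 24 h than at 8 h in DEHP and 0 were higher. That was 19.2% of the list, against 5.55% of all genes, with a list median of -0.06 log2. In corn oil 0 were called in either direction by limma, or 1 lower without replicate 3 at 24 h. The other 3 lower members were Alas1, the first enzyme of haem synthesis, at -2.32 ± 0.42 log2, Cyp2c55 at -1.19 ± 0.29, and Cyp3a25 at -0.44, which was chosen after its values were seen. Alas1 read 13.28, 13.44 and 13.17 at 8 h and 10.92, 11.61 and 10.39 at 24 h in DEHP, and it was -1.45 in corn oil (adjusted p 0.0684), or -2.07 (adjusted p 0.00261) without corn oil replicate 3 at 24 h. The call for Cyp2c55 was lost without DEHP replicate 1 at 8 h or replicate 3 at 24 h. For 3 members, Cyp2b10, Gadd45b and Cyp3a25, the difference itself differed between the treatments, and for 1 of them it did without corn oil replicate 2 at 8 h.

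**Figure D2:**
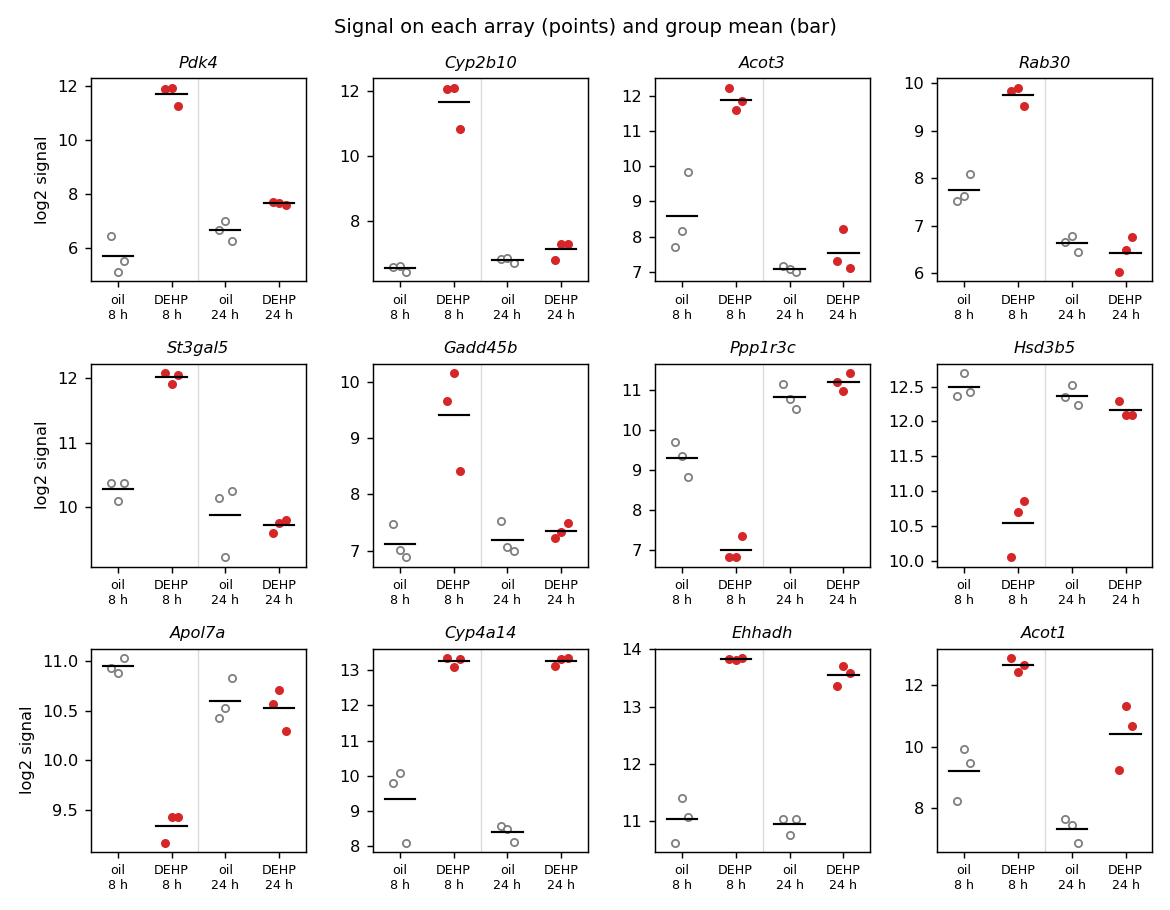
Log2 signal of 12 genes on each of the 3 arrays per group (points; open, corn oil; red, DEHP) with the group mean (bar), at 8 h to the left and 24 h to the right of the grey line. The vertical axes differ between panels and do not start at 0. Pdk4, Cyp2b10, Rab30, St3gal5 and Gadd45b were highest on the DEHP arrays at 8 h, Ppp1r3c, Hsd3b5 and Apol7a were low there, and Cyp4a14 and Ehhadh were high on the DEHP arrays of both times.

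The acyl-CoA thioesterases, which release fatty acids from coenzyme A in the cytosol, mitochondria and peroxisomes, separated by member. Acot3, a peroxisomal member, read 12.24, 11.61 and 11.85 at 8 h and 7.31, 8.22 and 7.11 at 24 h in DEHP, and fell by 4.35 ± 0.35 log2 (20.4-fold; adjusted p 2.56e-08). Its effect was 3.33 at 8 h and 0.47 at 24 h. Acot4, also peroxisomal, read 10.06, 9.40 and 10.03 at 8 h and 7.12, 7.94 and 7.19 at 24 h, and fell by 2.41 ± 0.21 (adjusted p 8.84e-08). For both, the groups did not overlap and the difference exceeded that in corn oil (-1.50 and -0.68; interaction adjusted p 0.00628 and 0.00611). Acot1, the cytosolic member, read 12.87, 12.42 and 12.66 at 8 h and 9.24, 11.31 and 10.66 at 24 h in DEHP. It fell by 2.24 ± 0.43 (adjusted p 0.00144), but corn oil fell by 1.89 as well (adjusted p 0.016; 0.12 with a difference of -1.53 when corn oil replicate 2 at 8 h was left out, and 0.0573 when replicate 3 at 24 h was), and the effect of DEHP was 3.43 at 8 h and 3.07 at 24 h. Acot2, the mitochondrial member, was -1.08 ± 0.24 in DEHP, and its effect was 2.28 at 8 h and 1.70 at 24 h. For Acot1 and Acot2 the interaction was not called (adjusted p 0.963 and 0.657). These are close paralogs in a cluster of similar sequence, so that probe sets may share signal between them. DEHP replicate 2 at 24 h had the highest value of the 3 arrays for all 4 genes.

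Several other genes were called higher in DEHP than in corn oil at 8 h but not at 24 h. At 2 h the effect of DEHP was 2.00 log2 for Rab30, 0.88 for St3gal5 and 1.01 for Nceh1. It was 0.09 for Lpin2, 0.04 for Slc16a5 and -0.01 for Srxn1. Rab30, a small GTPase of the Golgi, read 9.85, 9.91 and 9.53 at 8 h and 6.02, 6.48 and 6.76 at 24 h, and fell by 3.34 ± 0.26 log2 against -1.12 in corn oil (interaction adjusted p 0.00356), with -1.84 in another probe set. St3gal5, the sialyltransferase that makes the ganglioside GM3, read 12.08, 11.90 and 12.05 at 8 h and 9.61, 9.75 and 9.80 at 24 h, and fell by 2.29 ± 0.18 against a corn oil difference of -0.40 (0.000588). Lpin2, a phosphatidic acid phosphatase of triglyceride synthesis, fell by 1.40 ± 0.14 against -0.13 (0.0022). Each of these 3 genes had non-overlapping DEHP arrays, and its interaction was called after leaving out any single array of the 4 groups. Nceh1, a hydrolase of neutral cholesterol esters, fell by 2.48 ± 0.15 log2 in DEHP and by 1.42 in corn oil. Slc16a5, a monocarboxylate transporter, fell by 2.02 ± 0.21, and Srxn1, which repairs oxidised peroxiredoxins and is a target of NRF2, fell by 0.82 ± 0.13. The interaction was called for these 3 as well (adjusted p 0.0213, 0.0221 and 0.0214), but leaving out single arrays of either treatment ended that call. Other probe sets reached 0.04 for Slc16a5 and -0.07 for Srxn1.

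Early responses were picked on the 2 h arrays, which take no part in the comparison beyond the shared estimate of the spread. At 2 h, 112 genes (0.616%) were higher and 39 (0.214%) lower in DEHP than in corn oil. Of the 112, 58 (51.8%, against 2.68% of all genes) were called lower at 24 h than at 8 h in DEHP, and 7 (6.25%, against 2.87%) were called higher. In all, 89 of the 112 differences were negative, with a median of -0.53 log2 and quartiles of -1.08 and -0.10. In corn oil 22 of the 112 were called lower (1.79% of all genes were), 8 higher (0.78% of all genes), and the median was -0.19. All 22 were among the 58 called lower in DEHP. The median effect of DEHP on these genes was 0.79 log2 at 2 h, where they were chosen, 0.44 at 8 h and 0.11 at 24 h. The interaction was called for 15 of them, all lower in DEHP. The number of genes picked depended on single 2 h arrays: 35 of 59 early rises were called lower without corn oil replicate 1, 33 of 58 without corn oil replicate 3, 32 of 58 without DEHP replicate 1 and 38 of 61 without DEHP replicate 3.

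**Figure D3:**
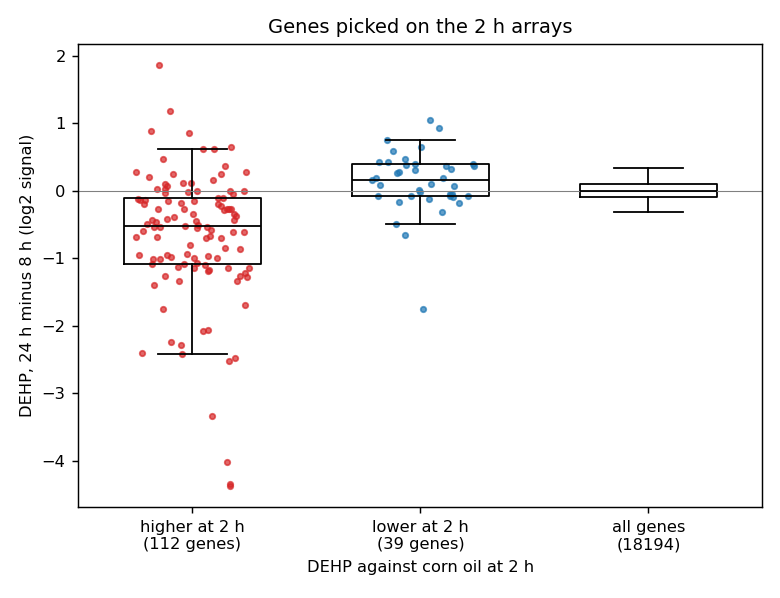
Difference between 24 and 8 h in DEHP livers (log2 signal) for the genes that DEHP raised or lowered at 2 h (points, 1 per gene), with boxes for the quartiles and median, whiskers from the 5th to the 95th percentile, and the box of all 18194 genes on the right. Most of the 112 early rises lie below 0, with a median of -0.53, and the median of all genes is -0.007.

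Among the early rises called lower at 24 h were Pdk4, with an effect of 4.96 log2 at 2 h, Rab30 with 2.00, G0s2 with 2.39 and Gadd45b with 2.33. Other large early rises kept their effect over corn oil. It was 4.44 at 2 h and 4.86 at 24 h for Cyp4a14, 3.25 and 3.07 for Acot1, and 1.93 and 2.61 for Ehhadh. For Vnn1, named after its values were seen, it was 2.04 and 3.46. Acot1 and Vnn1 were nevertheless called lower at 24 h in DEHP, with corn oil differences of -1.89 and -2.22. Cdkn1a, which codes for the cell cycle inhibitor p21, was called higher at 24 h than at 8 h in DEHP, by 0.88 ± 0.21 log2. Its effect was 1.81 at 2 h and 0.48 at 8 h. The same gene was higher at 24 h in corn oil too, by 1.03. Its DEHP values were 8.21, 8.08 and 8.44 at 8 h and 9.03, 8.99 and 9.36 at 24 h, so that the times did not overlap, although the call was lost without DEHP replicate 2 at 8 h or replicate 3 at 24 h and another probe set was at 0.24. Clpx, a mitochondrial protease subunit, was another early rise that was higher at 24 h, by 1.87 ± 0.18. In corn oil it rose by 1.49, and the interaction was not called (limma adjusted p 0.755). Of the 39 early falls, 7 were called higher at 24 h (17.9%, against 2.87%), 2 were called lower and the median was 0.16. In corn oil 3 of them were higher and 1 lower, with a median of 0.01, and the interaction was called for 0. The count of 7 was 1 without corn oil replicate 3 at 2 h and 20 without DEHP replicate 2 at 2 h.

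Among the 52 genes whose DEHP effect was higher at 24 h than at 8 h, the largest change was that of Ppp1r3c. It was low in DEHP at 8 h but was not among the early falls (effect at 2 h -0.82 log2, limma adjusted p 0.204). Ppp1r3c, a targeting subunit that brings protein phosphatase 1 to glycogen and favours glycogen synthesis, read 6.82, 6.84 and 7.35 at 8 h and 11.19, 10.99 and 11.43 at 24 h in DEHP. In corn oil it read 9.71, 9.35 and 8.83 at 8 h and 11.15, 10.78 and 10.53 at 24 h. All 3 DEHP arrays at 8 h lay below every other array, and at 24 h the treatments overlapped. Ppp1r3c rose by 4.2 ± 0.25 log2 (18.4-fold; adjusted p 2.41e-10) in DEHP and by 1.53 in corn oil (interaction adjusted p 0.000523), and its effect was -2.29 at 8 h and 0.38 at 24 h. Another probe set was at 2.67 in DEHP.

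Hsd3b5, a male-predominant hydroxysteroid dehydrogenase of liver, read 10.05, 10.70 and 10.87 at 8 h and 12.30, 12.09 and 12.10 at 24 h in DEHP, while the corn oil arrays of both times lay between 12.23 and 12.70. It rose by 1.62 ± 0.17 log2 with a difference of -0.12 in corn oil (interaction adjusted p 0.000787). Apol7a, an apolipoprotein L gene, read 9.17, 9.43 and 9.43 at 8 h and 10.57, 10.71 and 10.30 at 24 h. It rose by 1.18 ± 0.12, against -0.35 in corn oil (3.39e-05). Tcea3, a transcription elongation factor, rose by 1.10 ± 0.11 log2, against -0.10 (0.000327). For these 3 genes the low values were those of the DEHP arrays at 8 h, and the interaction was called whichever single array was left out. Their DEHP arrays did not overlap between the times, which the naming rule required of Tcea3.

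Cited2, a transcriptional co-regulator of CBP and p300, rose by 1.82 ± 0.23 log2 in DEHP, with 0.24 in corn oil. Enho, which codes for the secreted peptide adropin, rose by 1.21 ± 0.23 from 8.52, 9.05 and 8.46 to 9.96, 9.73 and 9.96, with -0.22 in corn oil, although other probe sets of the gene gave values down to -0.08. Tjp3, a tight junction scaffold, rose by 1.77 ± 0.15, with 0.75 in corn oil. The interaction for these 3 genes had adjusted p of 0.0222, 0.0474 and 0.0221 and was not called without corn oil replicate 2 at 8 h (0.0517, 0.118 and 0.0747) or without several other single arrays. Bmf, a pro-apoptotic BCL2 relative, had the interaction called (1.18 log2, adjusted p 0.00356) with a DEHP difference of 0.35 that was not called and a corn oil difference of -0.83 that was.

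Fatty acid oxidation genes differed in how long they held. Ehhadh, the bifunctional enzyme of peroxisomal β-oxidation, read 13.83, 13.81 and 13.85 at 8 h and 13.37, 13.70 and 13.59 at 24 h in DEHP. The difference was -0.28 ± 0.21 log2 (95% confidence interval -0.71 to 0.15; adjusted p 0.612), although the 3 arrays of each time did not overlap, and the effect of DEHP was 2.79 at 8 h and 2.61 at 24 h. Cyp4a14, a microsomal fatty acid omega-hydroxylase and classical PPARα target, read 13.35, 13.08 and 13.33 at 8 h and 13.12, 13.31 and 13.35 at 24 h. Its difference was 0.00 ± 0.40 (-0.82 to 0.83), with an effect of 3.92 at 8 h and 4.86 at 24 h. Both genes stayed above all corn oil arrays at both times, and both lay near the top of the scale, whose highest value in the table is 14.55. Compression of signals there was not tested.

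Of 39 measured genes of peroxisomal oxidation and biogenesis, 11 were lower at 24 h than at 8 h in DEHP and 0 were higher. Called members made up 28.2%, against 5.55% of all genes, and the list median was -0.19 log2. In corn oil 8 were lower, or 5 without replicate 2 at 8 h. Besides Acot3 and Acot4, the lower members with the largest falls were Pex11a, which drives peroxisome division, at -1.69 ± 0.17, and Pex19, which imports membrane proteins of peroxisomes, at -0.99 ± 0.11. Pex11a read 12.06, 12.32 and 12.23 at 8 h and 10.04, 10.83 and 10.69 at 24 h in DEHP, and the times did not overlap. Its corn oil difference was -0.66 (adjusted p 0.0421, not called without corn oil replicate 2 at 8 h or replicate 3 at 24 h) and the interaction was not called (adjusted p 0.06). Among members that were not called, Hsd17b4, the D-bifunctional enzyme, was at -0.07 ± 0.10, chosen after its values were seen.

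Of 20 genes of mitochondrial fatty acid oxidation, 6 were lower and 0 higher in DEHP at 24 h (30%, against 5.55% of all genes). In corn oil 3 were lower, and the list median in DEHP was 0.09 log2. The 6 were all outside the β-oxidation spiral. Besides Pdk4 and Acot2 they were Slc22a5, the plasma membrane carnitine transporter, at -2.52 ± 0.19 log2, Slc25a20, the carnitine-acylcarnitine translocase, at -0.76 ± 0.15, Cpt1a, the rate-limiting carnitine palmitoyltransferase, at -0.75 ± 0.12, and Cpt2, its partner in the inner membrane, at -0.70, which was named after its value was seen. Slc22a5 read 11.61, 11.76 and 11.47 at 8 h and 8.70, 9.40 and 9.18 at 24 h, without overlap, and its interaction was near the threshold (adjusted p 0.06). For Cpt1a and Slc25a20 the corn oil difference was as large (-0.69 and -0.66). Enzymes of the spiral, chosen after their values were seen, were at 0.12 ± 0.11 for Acadl, 0.08 ± 0.10 for Acadm, 0.17 ± 0.11 for Hadha and -0.05 ± 0.12 for Hadhb in DEHP. None of these 4 was called. Their effects of DEHP were 0.43, 0.47, 0.50 and 0.55 at 8 h and 0.77, 0.71, 0.72 and 0.73 at 24 h.

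Of 27 genes of lipid uptake, droplets and lipolysis, 11 were lower in DEHP (10 to 11 without single arrays), with 2 higher. Together they were 48.1% of the list, against 5.55% of all genes, and the list median was -0.35 log2. In corn oil 7 were lower and 1 higher. The interaction was called for 2 members that were lower in DEHP and 1 that was higher. G0s2, which inhibits the triglyceride lipase ATGL, read 12.65, 12.40 and 12.19 at 8 h and 9.47, 10.01 and 10.58 at 24 h. It fell by 2.40 ± 0.36 log2, against -0.29 in corn oil (interaction adjusted p 0.0618). Pnpla2, which codes for ATGL itself and was named after its values were seen, also fell. Its difference was -1.25 in DEHP and -0.52 in corn oil (interaction adjusted p 0.000556). Angptl4, a secreted inhibitor of lipoprotein lipase, fell by 1.78 ± 0.26, with other probe sets up to -0.07. The droplet coat genes Plin5 and Plin2 fell by 1.40 ± 0.21 and 1.34 ± 0.12. Plin2 read 13.86, 13.78 and 13.70 at 8 h and 12.38, 12.57 and 12.39 at 24 h, without overlap, and its corn oil difference was -0.92. Cd36, a fatty acid transporter, was at -0.30 ± 0.47 and overlapped between the times. The adipocyte markers Cidec and Lipe described above belong to this list too.

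Of 18 nuclear receptor genes of fat and sterol sensing, 1 was called lower and 0 higher in DEHP, 5.56% against 5.55% of all genes. Ppara itself was at -0.18 ± 0.21 log2 and its partner Rxra at 0.07 ± 0.09, both not called. Fgf21, a secreted hormone that PPARα induces, was at -0.44 ± 0.21 (adjusted p 0.316), with DEHP values of 8.46, 8.17 and 8.18 at 8 h and 7.72, 7.74 and 8.03 at 24 h. Of 23 genes of fatty acid and triglyceride synthesis, Lpin2 alone was called (4.35%, against 5.55% of all genes). Fasn, the fatty acid synthase, was at 0.06 ± 0.39 and Scd1, the stearoyl-CoA desaturase, at 0.01 ± 0.11.

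Core clock genes differed between 24 and 8 h in DEHP much as they did in corn oil. Of 20 measured members, 4 were higher and 7 lower at 24 h in DEHP (55%, against 5.55% of all genes). The median in DEHP was -0.19 log2, and 3 members were higher and 6 lower in corn oil. The interaction was called by limma for 0 of the 20 (2 at an unadjusted p under 0.05), with or without the 2 corn oil arrays that stood apart. Dbp, a transcription factor driven by CLOCK and ARNTL, read 11.20, 11.45 and 11.05 at 8 h and 6.31, 7.62 and 6.10 at 24 h in DEHP, and fell by 4.56 ± 0.57 log2. In corn oil it fell by 4.07, from 11.64, 12.08 and 11.86 to 7.45, 6.92 and 9.0. Arntl, the activator itself, read 6.5, 6.77 and 6.87 at 8 h and 8.46, 8.27 and 8.61 at 24 h, a rise of 1.73 ± 0.20 against 1.45, although another probe set was at 0.02. The times did not overlap for either gene in either treatment. In both treatments the activators Arntl and Clock were called higher and Dbp, Per3, Nr1d2, Tef and Ciart lower, as the plot of the 20 genes shows.

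**Figure D4:**
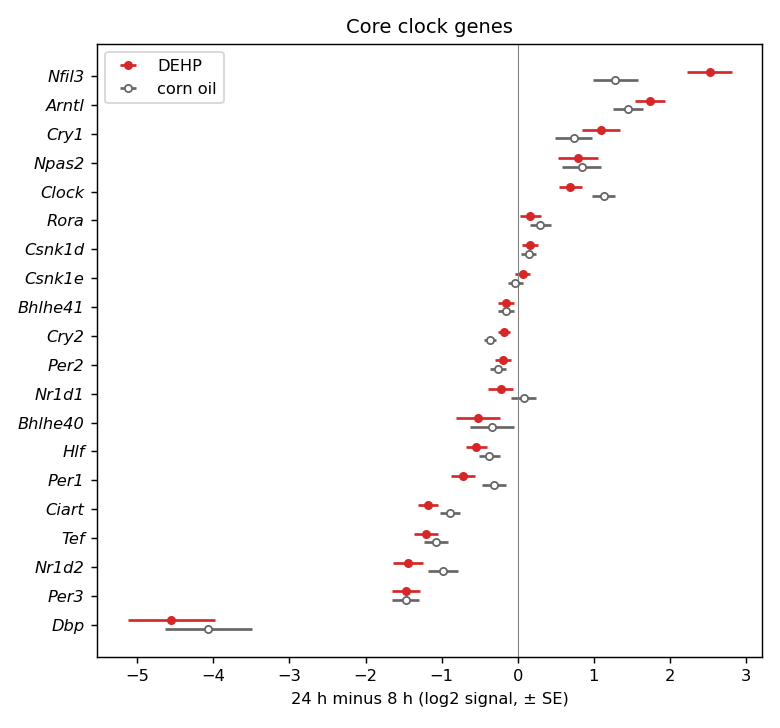
Difference between 24 and 8 h (log2 signal, mean ± SE, 3 arrays per group) of the 20 measured core clock genes in DEHP (red) and corn oil (open) livers, ordered by the DEHP value. The 2 treatments lie on the same side for most genes, from Dbp at -4.56 and -4.07 to Nfil3 at 2.52 and 1.28.

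The other clock genes called higher in DEHP were Nfil3, a repressor of D-box genes, at 2.52 ± 0.30 log2, Cry1, a repressor of CLOCK and ARNTL, at 1.10, and Clock at 0.69. Those called lower were Per3, a period gene, at -1.47 ± 0.18 (its 6 probe sets reached -0.22), Nr1d2 (REV-ERBβ) at -1.44, the D-box activators Tef at -1.21 and Hlf at -0.54, the repressor Ciart at -1.18, and Per1 at -0.72 ± 0.16. Cry1, Clock, Nr1d2, Tef, Hlf and Ciart were named after their values were seen, to complete the 11. Per2 was at -0.19 ± 0.10 and Nr1d1 (REV-ERBα) at -0.22 ± 0.16, neither called, although another probe set of Per2 was at -0.81. Nfil3 read 7.45, 7.48 and 7.13 at 8 h and 10.09, 9.60 and 9.92 at 24 h in DEHP. Its corn oil difference was 1.28, not called without corn oil replicate 2 at 8 h (adjusted p 0.0726), and the interaction was not called (adjusted p 0.258).

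Promoters of the 11 clock genes called in DEHP were searched for clock elements. RefSeq promoter windows, 250 bases before to 50 after each start in GRCm38.p6, were found for 11 of 11 genes, 16 windows in all, and searched on both strands. The E-box CACGTG, which CLOCK and ARNTL bind, was in a window of 4 of the 11 genes (Ciart, Cry1, Per1 and Tef) and in 7.15% of all 32851 windows. The D-box TTATGTAA, which DBP, TEF, HLF and NFIL3 bind, was in that of Per3 and in 0.938% of all windows. The ROR element, searched as AAN followed by TAGGTCA, which ROR and REV-ERB proteins bind, was in that of Arntl and in 0.219% of all windows. The cAMP response element TGACGTCA, in 1.79% of all windows, was in that of Hlf. A match describes the sequence and shows no binding, and the other windows say only that these letters are not in them. The windows of 4 genes are shown, with the motif in capitals, as examples of the 3 clock elements. They are Ciart (chr3:95882179-95882478, minus strand, 3 E-boxes), Per1 (chr11:69098699-69098998, plus strand, 1 E-box), Per3 (chr4:151044616-151044915, minus strand, 2 D-boxes) and Arntl (chr7:113207261-113207560, plus strand, 1 ROR element that starts 27 bases after the start).
Ciart: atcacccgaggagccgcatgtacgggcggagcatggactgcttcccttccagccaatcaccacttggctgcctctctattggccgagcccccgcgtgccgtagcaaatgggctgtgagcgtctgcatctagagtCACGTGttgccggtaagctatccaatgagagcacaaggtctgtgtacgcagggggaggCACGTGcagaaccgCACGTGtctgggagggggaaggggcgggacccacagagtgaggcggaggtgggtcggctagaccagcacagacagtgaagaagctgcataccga
Per1: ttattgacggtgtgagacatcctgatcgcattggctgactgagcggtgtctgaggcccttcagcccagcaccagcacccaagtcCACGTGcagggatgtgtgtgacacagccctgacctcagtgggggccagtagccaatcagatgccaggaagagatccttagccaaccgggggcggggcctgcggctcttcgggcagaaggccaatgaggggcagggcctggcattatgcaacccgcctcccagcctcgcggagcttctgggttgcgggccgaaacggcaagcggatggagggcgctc
Per3: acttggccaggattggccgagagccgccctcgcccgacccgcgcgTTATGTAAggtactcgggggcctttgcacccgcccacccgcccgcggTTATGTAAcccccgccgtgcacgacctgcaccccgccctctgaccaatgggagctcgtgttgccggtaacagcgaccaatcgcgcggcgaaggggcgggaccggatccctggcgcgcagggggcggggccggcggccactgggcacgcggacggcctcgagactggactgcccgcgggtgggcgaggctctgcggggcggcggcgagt
Arntl: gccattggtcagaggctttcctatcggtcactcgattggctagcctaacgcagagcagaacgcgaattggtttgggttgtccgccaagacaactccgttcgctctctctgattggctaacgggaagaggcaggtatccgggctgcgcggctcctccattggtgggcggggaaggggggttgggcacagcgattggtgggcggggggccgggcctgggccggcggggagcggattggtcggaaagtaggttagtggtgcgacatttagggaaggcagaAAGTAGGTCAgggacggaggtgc

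The Ciart window holds its E-boxes at -116, -58 and -44 from the start, and the gene was lower at 24 h. The Per3 window holds its D-boxes at -205 and -158, and that gene was lower too, while Arntl, with the ROR element, was higher. Among the 14 largest falls in DEHP, 13 genes had a window and 2 of them, Nceh1 and Acot4, held an E-box. Among the 14 largest rises, 13 had a window and 5 held an E-box and 2 a ROR element. A direct repeat of AGGTCA with 1 base between the copies, a strict form of the element that PPARα and RXR bind, was in 0.0396% of all windows and in 0 of the windows of these genes, and the heat shock element, searched as GAA, TTC and GAA with 2 bases between neighbours, in 0.603% of all windows, in 0 as well.

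Of 23 clock output genes, 6 were higher and 9 lower at 24 h in DEHP (65.2%, against 5.55% of all genes). In corn oil 5 were higher and 6 lower, or 9 lower without replicate 3 at 24 h. In DEHP the higher calls numbered 4 to 7 without single arrays. Usp2, a clock-controlled deubiquitinase, fell by 2.10 ± 0.19 log2 in DEHP and by 1.54 in corn oil. Coq10b, a coenzyme Q binding protein, fell by 1.91 ± 0.18 and 0.99, and Tubb2a, a tubulin also counted below, rose by 2.36 ± 0.23 and 2.45. Pfkfb3, a regulator of glycolysis, was at -1.79 ± 0.37 in DEHP and at -1.05 in corn oil, where it was not called, but without replicate 3 at 24 h it was -1.62 in corn oil (adjusted p 0.00539). Another probe set of Pfkfb3 was at -0.38 in DEHP.

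Metallothioneins and serum amyloids had some of the largest falls, with uneven arrays in corn oil. Mt2, a zinc-binding stress protein, read 12.41, 12.96 and 13.21 at 8 h and 8.09, 8.27 and 7.91 at 24 h in DEHP, and fell by 4.77 ± 0.94 log2 (adjusted p 0.00207). In corn oil it read 13.24, 13.28 and 12.25 at 8 h and 8.61, 8.71 and 10.68 at 24 h, and fell by 3.59. The groups did not overlap in either treatment, and the highest corn oil value at 24 h was that of replicate 3. Mt1, its close relative, fell by 4.48 ± 0.90, with -0.89 in another probe set. Mt1 and Mt2 were called in corn oil with adjusted p of 0.0439 and 0.0421, which became 0.14 and 0.147 without corn oil replicate 2 at 8 h.

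Of 27 acute phase genes, 4 were lower in DEHP at 24 h and 0 higher (14.8%, against 5.55% of all genes), with a median of -0.24 log2. Saa2 read 13.33, 14.22 and 13.07 at 8 h and 9.44, 8.29 and 9.76 at 24 h, and fell by 4.38 ± 0.95, and Saa1 fell by 2.87 ± 0.59. In corn oil these genes differed by -2.28 and -1.44 and were not called, but without replicate 3 at 24 h they fell by 3.56 and 2.27 (adjusted p 0.0291 and 0.0227). Cebpb and Cebpd, transcription factors of the acute phase response, fell by 1.28 ± 0.17 and 1.24 ± 0.26, with -0.04 in another probe set of Cebpd. In corn oil 1 member was higher and 0 lower, or 3 lower without that array. The interaction was called by limma for 0 of the 27 (4 at an unadjusted p under 0.05).

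Of 25 genes of protein folding in the endoplasmic reticulum 9 were higher in DEHP (7 to 10 without single arrays), with 0 lower. That was 36% of the list, against 5.55% of all genes, with a median of 0.37 log2. In corn oil 8 were higher, the median was 0.46 and the interaction was called by limma for 0 (3 at an unadjusted p under 0.05). Manf, a secreted stress protein of the reticulum, read 9.85, 9.89 and 9.42 at 8 h and 11.87, 11.59 and 11.62 at 24 h and rose by 1.97 ± 0.20. Creld2, another stress-induced protein, rose by 1.54 ± 0.27 and Hspa5 (BiP), the main chaperone there, by 1.14 ± 0.12, though other probe sets of Hspa5 reached -0.05. Of 13 tubulins 4 were higher and 0 lower in DEHP (30.8%, against 5.55% of all genes). In corn oil 3 were higher, or 1 without replicate 2 at 8 h and 2 without replicate 3 at 24 h. Other probe sets were at 0.59 for Tubb2a and 0.63 for Tubb5. Tubb2a read 9.59, 9.53 and 8.96 at 8 h and 11.95, 11.72 and 11.49 at 24 h, and Tubb5 rose by 1.61 ± 0.15 against 0.67 in corn oil (interaction adjusted p 0.0427, lost without any 1 of 11 of the 12 arrays).

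Ribosome biogenesis genes were lower at 24 h in DEHP, 12 of 39 (30.8%, against 5.55% of all genes called) with 0 higher. Of the 39 differences, 37 were negative (median -0.25 log2). The number of lower calls was 8 to 12 when DEHP arrays were left out in turn. In corn oil 0 were called and the median was -0.15, or 5 were called lower without replicate 3 at 24 h, and the interaction was called by limma for 0 (8 at an unadjusted p under 0.05), so that a difference between the treatments was not shown. Nop58, a core protein of box C/D particles, read 7.95, 8.20 and 7.59 at 8 h and 6.87, 6.72 and 7.10 at 24 h and fell by 1.02 ± 0.21. Gnl3 (nucleostemin) fell by 0.84 ± 0.14, Nop56 by 0.61 ± 0.09 and Gar1, a box H/ACA protein, by 0.56 ± 0.12. Myc, a transcription factor known for driving these genes, was at -1.57 ± 0.41 (adjusted p 0.0235), a call lost without DEHP replicate 2 at 8 h among others.

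Cytosolic heat shock chaperones had 0 of 18 members called in DEHP (limma; 4 at an unadjusted p under 0.05; median -0.09 log2). Hspa8, the constitutive HSP70, was at -0.33 ± 0.10 (adjusted p 0.063), from 12.99, 12.56 and 12.94 to 12.51, 12.48 and 12.51. In corn oil 3 of the 18 were higher, and 0 without replicate 2 at 8 h. Among cell cycle genes, 2 of 36 DNA replication genes were higher (0 to 3 without single arrays) and 1 lower, 8.33% against 5.55% of all genes. Of 35 mitosis genes 0 were called by limma (1 at an unadjusted p under 0.05), the proliferation marker Mki67 being at 0.18 ± 0.22. The lower one was Ccnd1 (cyclin D1), which fell by 1.15 ± 0.21 from 9.97, 10.01 and 9.46 to 8.65, 8.82 and 8.52, with -0.49 in corn oil.

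In DEHP 21.1% of cholesterol synthesis genes, 15% of bile acid and 25.9% of glucose and glycogen genes were called, against 5.55% of all genes. Of 19 cholesterol synthesis genes 3 were higher and 1 lower in DEHP (median 0.29 log2), but without single DEHP arrays the higher calls numbered 0 to 3. Hsd17b7, which acts in that pathway, fell by 1.13 ± 0.20, with probe sets from -1.21 to -0.18. Of 20 bile acid genes 3 were higher and 0 lower, or 1 to 2 higher without single arrays. One of them was Fgfr4, the receptor through which FGF15 restrains bile acid synthesis, which rose by 0.90 ± 0.12 from 7.97, 8.29 and 8.27 to 9.0, 9.23 and 9.0, although another probe set was at 0.02. Cyp7a1, which catalyses the first step of the classical pathway, was at 0.37 ± 0.29 and not called.

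Of 27 glucose and glycogen genes 4 were higher and 3 lower in DEHP, or 2 to 4 and 2 to 3 without single arrays, with 2 higher and 1 lower in corn oil. Besides Ppp1r3c, the phosphatase subunit gene Ppp1r3b rose by 1.31 ± 0.19 log2, while Ppp1r3g, another such subunit, fell by 1.61 ± 0.37, from 7.22, 7.61 and 7.34 to 5.91, 5.63 and 5.80. Gys2, the liver glycogen synthase, fell by 1.16 ± 0.16 in DEHP and by 1.21 in corn oil. The share of called members in each list is drawn in the bar plot of all lists.

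**Figure D5:**
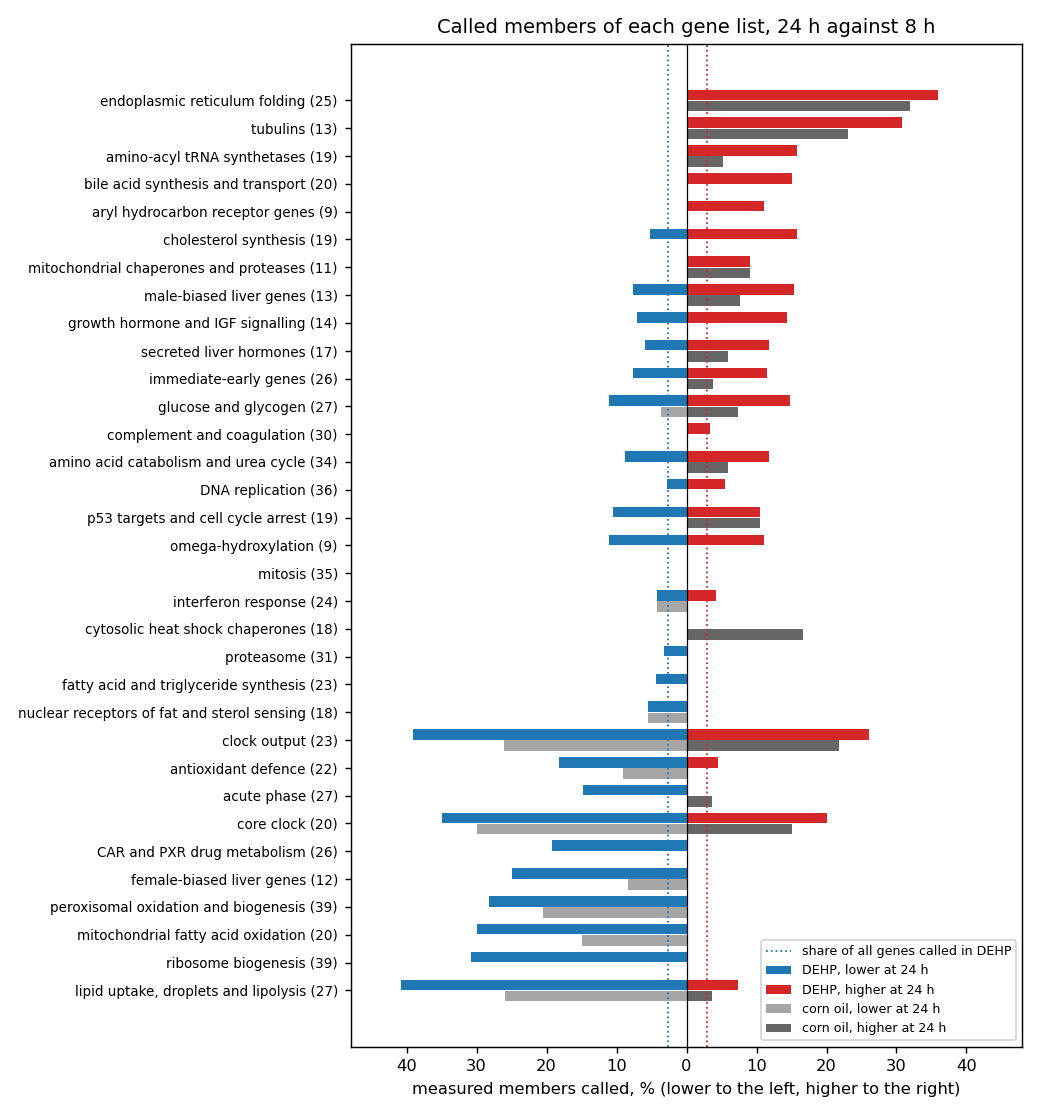
Percentage of the measured members of each gene list (number in brackets) called at an adjusted p under 0.05 between 24 and 8 h, lower to the left and higher to the right, in DEHP (colour) and corn oil (grey). Dotted lines mark the shares of all genes called in DEHP, 2.68% lower and 2.87% higher. Lists of lipid droplet, ribosome biogenesis and fatty acid oxidation genes reach to the left, and those of endoplasmic reticulum folding and tubulins to the right.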

How the data were processed

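Messenger RNA of mouse liver was measured on 24 Affymetrix arrays, each with 45101 probe sets. The deposited values are log2 signals, computed by the authors with RMA (version not stated), per the submitters' processing notes. They range from 2.84 to 14.55. Here 34958 probe sets with 1 gene symbol were used (932 had several and 9211 none). R 4.3.3 and limma 3.58.1 fitted 1 model of 8 group means over 24 arrays (16 residual and 6.21 prior degrees of freedom), tested on simulated data, with Benjamini-Hochberg adjustment over 18194 genes. Errors are SE, and the number of arrays limits the precision. Genes were named by rule, which gave 137 genes. The rule took the 14 largest falls and rises and 8 genes per sign of the interaction, all with non-overlapping DEHP arrays. It added up to 4 called members of each of 44 lists, and a fixed set. For genes named only as falls, rises or interaction genes, the lack of overlap was a condition and no further test. Of 951 list genes 84 were not analysed here. The comparison, lists and rule were chosen with earlier results of these data known. Alternatives changed 1 choice at a time: replicate blocks, filters, probe sets, normalization, weights, an Actb covariate, thresholds, arrays used and each array left out. The replicate numbers were not taken as pairs in the main model, since the labels do not state a pairing. Same-numbered DEHP arrays of the 2 times deviated from their group means together, with r of 0.065, 0.269 and 0.251. A model with the number as a block is given below.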

Additional observations from a re-analysis of the deposited data

Results flagged for a closer look

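For 21 of the genes named by the rule, the difference between 24 and 8 h in DEHP livers differed from that in corn oil livers. This was by the test of the difference itself (limma interaction, adjusted p under 0.05 over 18194 genes). The DEHP difference was the lower of the 2, by -4.98 log2 for Pdk4, -4.79 for Cyp2b10, -2.86 for Acot3, -2.22 for Rab30, -2.14 for Gadd45b, -1.89 for St3gal5, -1.74 for Acot4, -1.48 for Slc16a5, -1.27 for Lpin2, -1.06 for Nceh1 and -0.95 for Srxn1.

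It was the higher of the 2 by 2.67 log2 for Ppp1r3c, 1.75 for Hsd3b5, 1.59 for Cited2, 1.53 for Apol7a, 1.43 for Enho, 1.21 for Nxpe2, 1.19 for Tcea3, 1.18 for Bmf, 1.02 for Tjp3 and 0.94 for Tubb5. For 12 of the 21 (Pdk4, Cyp2b10, Acot3, Rab30, St3gal5, Acot4, Lpin2, Ppp1r3c, Hsd3b5, Apol7a, Tcea3 and Bmf) the call held after leaving out any single array of the 4 groups.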

How the results depend on the processing

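With the replicate number as a block, 1039 genes were called in DEHP (973 of them among the 1010), 473 in corn oil and 92 in the interaction. In deviations from the group mean, each DEHP array at 8 h correlated best with the 24 h array of its own number. Other counts were as follows. In DEHP, 1963 genes were called with array weights, 595 at an adjusted p under 0.01 and 535 at 1.5-fold or more, and 694 to 922 without single arrays. In corn oil, 177 were called with the Actb covariate, 195 at 0.01, 232 at 1.5-fold and 159 with only the groups compared, and 194 to 610 without single arrays. The interaction gave 266 with array weights (78.6% higher), 41 with the Actb covariate, 30 at 0.01 and 49 with only the groups compared, and 42 to 113 without single arrays. Early rises called lower numbered 32 to 76 without single arrays. Early falls called higher numbered 4 with the mean of all probe sets, 12 with quantile normalization, 4 at 0.01 and 3 at 1.5-fold, and 1 to 20 without single arrays. The causes were not tested.

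Of 111 named genes called in DEHP, 84 kept the call without any single array and 81 in every setting other than the stricter thresholds. No named gene changed direction with a call. The median over all genes lay between -0.007 and 0.0088 log2 under the scalings tried. Signal over background was judged only by the filter on dim genes (1099 called), since no detection calls were used.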

Other observations

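Amino acid genes moved in both directions in DEHP. Of 34 measured genes of amino acid catabolism and the urea cycle, 4 were higher and 3 lower at 24 h (20.6%, against 5.55% of all genes). Gldc, of the glycine cleavage system, rose by 1.19 ± 0.14 log2 in DEHP and by 1.03 in corn oil. Hal, which starts histidine breakdown, rose by 1.01 ± 0.15, with 0.28 in corn oil, and Aass, of lysine breakdown, fell by 0.69 ± 0.11, with -0.21. Of 19 amino-acyl tRNA synthetases 3 were higher and 0 lower (15.8%, against 5.55%), led by Tars at 0.82 ± 0.11. Of 14 growth hormone and IGF signalling genes 2 were higher and 1 lower (21.4%, against 5.55%). Bcl6, a repressor that growth hormone lowers, rose by 1.81 ± 0.38, and Stat5b by 0.69 ± 0.11. Socs2, a growth hormone target, fell by 1.43 ± 0.38, a call lost without single arrays, with other probe sets up to 0.08. Another probe set of Stat5b was at 0.37. Of 12 female-biased genes 3 were lower (Acot3, Cyp17a1 and Trim24, with -0.25 in another probe set of Trim24) and 0 higher, 25% against 5.55%. Of 13 male-biased genes 2 were higher and 1 lower (23.1%, against 5.55%), or 1 to 2 and 0 to 1 without single arrays.

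Among 26 immediate-early genes 3 were higher and 2 lower in DEHP (19.2%, against 5.55% of all genes), with 0 to 2 lower without single arrays. Dusp1, a phosphatase of MAP kinases, rose by 1.46 ± 0.31 log2, from 8.99, 8.18 and 8.6 to 10.47, 9.06 and 10.60, with -0.01 in corn oil and an interaction that was not called (adjusted p 0.174). Sgk1, a kinase induced by glucocorticoids, rose by 0.87 ± 0.17, with 0.16 in corn oil. Its effect of DEHP was 0.32 at 8 h and 1.02 at 24 h, and the interaction was not called (adjusted p 0.274). Of 30 complement and coagulation genes, Klkb1 (plasma prekallikrein) alone was called, at 0.88 ± 0.12 (3.33% of the list, against 5.55% of all genes). Of 24 interferon response genes 8.33% were called, against 5.55%: Ifi47 rose by 0.61 ± 0.14 and Igtp fell by 0.72 ± 0.17. Of 22 antioxidant genes 1 was higher and 4 lower (22.7%, against 5.55%), and the higher call was lost without most single arrays. Of 19 p53 targets 2 were higher, or 0 to 1 without single arrays, and 2 lower (21.1%, against 5.55%). Single calls were made among 9 aryl hydrocarbon receptor genes for Ahr, at 0.82 ± 0.18, and among 31 proteasome genes for Psmd4, at -0.38 ± 0.10. These were 11.1% and 3.23% of their lists, against 5.55%. The calls for Igtp, Ahr and Psmd4 were lost without single DEHP arrays, and other probe sets were at 0.18 for Ahr and -0.01 for Psmd4. Of 3 ketone body genes measured, limma called 0, and 0 had an unadjusted p under 0.05.

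Of 10143 probe sets without a single gene symbol, 130 (1.28%) were called in DEHP, 56 higher and 74 lower at 24 h.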
